A study of Homo sapiens with 48 samples.

Results

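HOX genes are homeobox transcription factor genes that lie side by side in 4 clusters, HOXA on chromosome 7, HOXB on chromosome 17, HOXC on chromosome 12 and HOXD on chromosome 2. The genes described here are 38 HOX genes chosen by symbol from the 35535 genes of a count table, 10 in HOXA, 10 in HOXB, 9 in HOXC and 9 in HOXD. RNA sequencing measured them in 8 established lines of human bladder cancer: 639V, HT1197, HT1376, KU1919, SW780, T24, TCCSUP and VMCUB, spelled VMCUB1 in the growth protocol. CPI-0209, which inhibits the histone methyltransferase EZH2, was given at 250 nM over 4 days, and the controls carry the label DMSO, the usual vehicle. With 3 libraries for each line and treatment there were 48 libraries in 16 groups, and the labels give no genotype or allele for any line.

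In the embryo HOX genes are switched on in the order of their position, from the 3' end of a cluster, whose genes act near the head, to the 5' end, whose genes act near the tail and in the limb and urogenital tract. The genes are numbered by paralogue group in that order, here called anterior for groups 1 to 3, central for groups 4 to 8 and posterior for groups 9 to 13. Silent HOX genes are a textbook target of Polycomb repressive complex PRC2, in which EZH2 methylates histone H3, and adult cells tend to keep a HOX pattern that reflects where in the body they arose. The bladder lies in the caudal part of the trunk. HOX proteins bind DNA together with cofactors, among them the MEIS family.

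Library totals ranged from 26481418 to 50916911 counts, with a median of 41665645. Chi-square per degree of freedom lay between 2.13 and 125.6 over the 48 pairs of replicates, so no pair was as close as counting noise allows. The values from 44.6 up all belonged to pairs with KU1919 CPI-0209 replicate 1, T24 DMSO replicate 2, T24 CPI-0209 replicate 3 or VMCUB DMSO replicate 2, and all other pairs lay at 29.4 or below. The mitochondrial share of counts was 1.75% in TCCSUP DMSO replicate 1 against 3.49% to 3.84% in the other TCCSUP libraries, and in SW780 it was 4.63% to 5.26% in DMSO and 5.88% to 6.18% in CPI-0209 libraries. The labels do not say whether replicates came from separate cultures, and p-values therefore reflect only the spread among these samples, which may be technical. The epithelial keratin genes KRT7, KRT8, KRT18 and KRT19 stood at 1 CPM (counts scaled to library size) or more in DMSO in all 8 lines, EPCAM and CDH1 were under 1 CPM only in 639V, and UPK2, a urothelial marker, reached 1 CPM in 4 lines. TCCSUP stood apart in the fibroblast markers: its 9 fibroblast markers summed to between 8203 and 9592 CPM in DMSO, against at most 294.6 CPM in the other lines. PTPRC, a leukocyte marker, was at 28.1 CPM there and under 1 CPM elsewhere, but only 2 of 9 leukocyte markers reached 1 CPM in TCCSUP, as in HT1376. The endothelial markers of TCCSUP summed to between 4.36 and 5.32 CPM in DMSO, below the 8.87 to 9.48 CPM of SW780. The summed fibroblast markers were higher in every CPI-0209 library than in every DMSO library in 7 lines and lower in HT1376. Gene by gene in HT1376, however, 4 of 7 tested fibroblast markers rose and 2 fell at an edgeR adjusted p under 0.05. In HT1376 the 9 leukocyte markers went from between 10.2 and 10.5 CPM summed to between 22.3 and 29.3, with 2 of them at 0, and in TCCSUP from between 59.8 and 64.5 down to between 38.3 and 40.8, with 3 at 0. The 6 endothelial markers of HT1376 went from between 3.24 and 3.96 to between 11.8 and 14.9 CPM, with 1 at 0. Summed, the 13 epithelial and urothelial markers were lower without overlap in 639V (2809 to 3126 in DMSO, 2082 to 2380 in CPI-0209), TCCSUP (2518 to 2839 and 2235 to 2323) and VMCUB (11540 to 12090 and 10750 to 11450). In HT1376 that sum was higher without overlap (7243 to 8502 and 8545 to 9673). Such sums follow the markers with the most RNA. Gene by gene at the same threshold, 5 of these markers rose and 3 fell in 639V. In TCCSUP 4 rose and 2 fell, in VMCUB 2 and 2, and in HT1376 5 and 2. The part of these markers and of the mitochondrial share in the HOX results was not tested. EZH2, the target of the inhibitor, had a log2 fold change shared over the 8 lines of 0.03 ± 0.03 (SE, edgeR adjusted p = 0.513). Its mRNA level does not measure its enzyme activity.

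Promoter windows from RefSeq on GRCh38.p14, each running from 250 bases before a gene's start to 50 after it, matched 20 of the 38 HOX genes, with 26 windows in all. Those not matched were HOXA5, HOXB2, HOXB3, HOXB4, HOXB5, HOXB6, HOXB7, HOXB8, HOXB9, HOXB13, HOXC6, HOXC8, HOXC9, HOXC10, HOXC11, HOXC12, HOXC13 and HOXD9. Shown here are 4 windows, with each CpG dinucleotide in capitals. HOXD10 and HOXD11 are neighbours that rose together in 4 lines, and HOXA7 and HOXA9 were called lower in 4 and 2 lines and higher in none. The HOXD10 window is chr2:176116528-176116827 on the plus strand and holds 23 CpG dinucleotides. The HOXD11 window is chr2:176107030-176107329 on the plus strand with 27, the HOXA7 window is chr7:27156626-27156925 on the minus strand with 31, and the HOXA9 window is chr7:27165488-27165787 on the minus strand with 22.
HOXD10: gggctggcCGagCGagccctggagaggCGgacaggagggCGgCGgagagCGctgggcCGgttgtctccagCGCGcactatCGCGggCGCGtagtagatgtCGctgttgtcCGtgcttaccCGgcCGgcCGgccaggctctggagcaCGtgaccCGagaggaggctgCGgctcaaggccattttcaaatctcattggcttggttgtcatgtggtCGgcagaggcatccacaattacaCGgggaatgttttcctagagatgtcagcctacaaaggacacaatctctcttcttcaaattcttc
HOXD11: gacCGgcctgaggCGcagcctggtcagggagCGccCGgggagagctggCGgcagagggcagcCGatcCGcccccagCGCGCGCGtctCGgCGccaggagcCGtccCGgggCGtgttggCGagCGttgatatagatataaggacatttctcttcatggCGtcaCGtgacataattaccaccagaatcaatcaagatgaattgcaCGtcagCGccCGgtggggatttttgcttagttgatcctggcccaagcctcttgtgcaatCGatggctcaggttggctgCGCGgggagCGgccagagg
HOXA7: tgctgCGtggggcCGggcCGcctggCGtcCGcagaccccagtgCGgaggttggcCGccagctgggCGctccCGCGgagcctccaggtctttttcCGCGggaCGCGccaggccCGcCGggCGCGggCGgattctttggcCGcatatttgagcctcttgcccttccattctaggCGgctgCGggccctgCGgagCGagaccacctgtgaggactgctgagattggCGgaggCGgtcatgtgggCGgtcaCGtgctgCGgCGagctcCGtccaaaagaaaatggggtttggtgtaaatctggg
HOXA9: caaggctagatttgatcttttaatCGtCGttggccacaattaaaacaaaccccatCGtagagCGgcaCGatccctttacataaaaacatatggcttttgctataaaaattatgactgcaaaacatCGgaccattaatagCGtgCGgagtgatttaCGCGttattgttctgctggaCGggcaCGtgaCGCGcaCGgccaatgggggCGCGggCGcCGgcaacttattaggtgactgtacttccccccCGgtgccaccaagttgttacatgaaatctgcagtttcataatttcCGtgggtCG

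CpG dinucleotides, the sites where DNA can be methylated and which are dense at many developmental genes, were frequent in the 4 windows printed above, whichever way the gene moved. They were not frequent in every HOX window: HOXD4, called lower in 2 lines and higher in 1, had 4 CpG dinucleotides and a ratio of observed to expected CpG of 0.244. Several of the 26 windows belong to HOXA3, with 0 to 29 CpG dinucleotides, and HOXC4 and HOXC5 share the same window. The 26 HOX windows had a median of 22.5 CpG dinucleotides, against 14 over all 35116 promoter windows of 300 bases, and a median ratio of observed to expected CpG of 0.855 against 0.579. The ratio was over 0.6 in 21 of 26 HOX windows and in 48.9% of all windows. Both HOXD10, at 0.861, and HOXA9, at 1.27, lay above that mark. The motif TGATNNAT, a binding sequence of HOX proteins with a cofactor searched on both strands, was present in 3 of 26 HOX windows (HOXD11, HOXA2 and HOXB1) and in 7.4% of all windows. A match is a description of the sequence and not a measured binding site.

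The lines differed widely in how much HOX RNA they made under DMSO. The 38 genes summed to a mean of 787 CPM in 639V, 526 in TCCSUP, 495 in T24, 294 in KU1919, 268 in SW780, 265 in VMCUB, 60.03 in HT1197 and 5.22 in HT1376. In 639V 35 of the 38 genes had at least 1 CPM, in KU1919 32, in T24 and in TCCSUP 30 each, in SW780 26, in VMCUB 21, in HT1197 10 and in HT1376 2. The 2 genes of HT1376 were HOXA4 and HOXC13, and 29 of its HOX genes stood under 0.1 CPM. All 36 HOX genes that could be tested differed in DMSO level between the lines in edgeR's quasi-likelihood test (adjusted by Benjamini-Hochberg), as did 97.5% of all genes tested, so a difference between lines is the rule and not particular to HOX genes. HOXB1 and HOXD12 were too low to be tested and reached 1 CPM in no line.

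**Figure D1:**
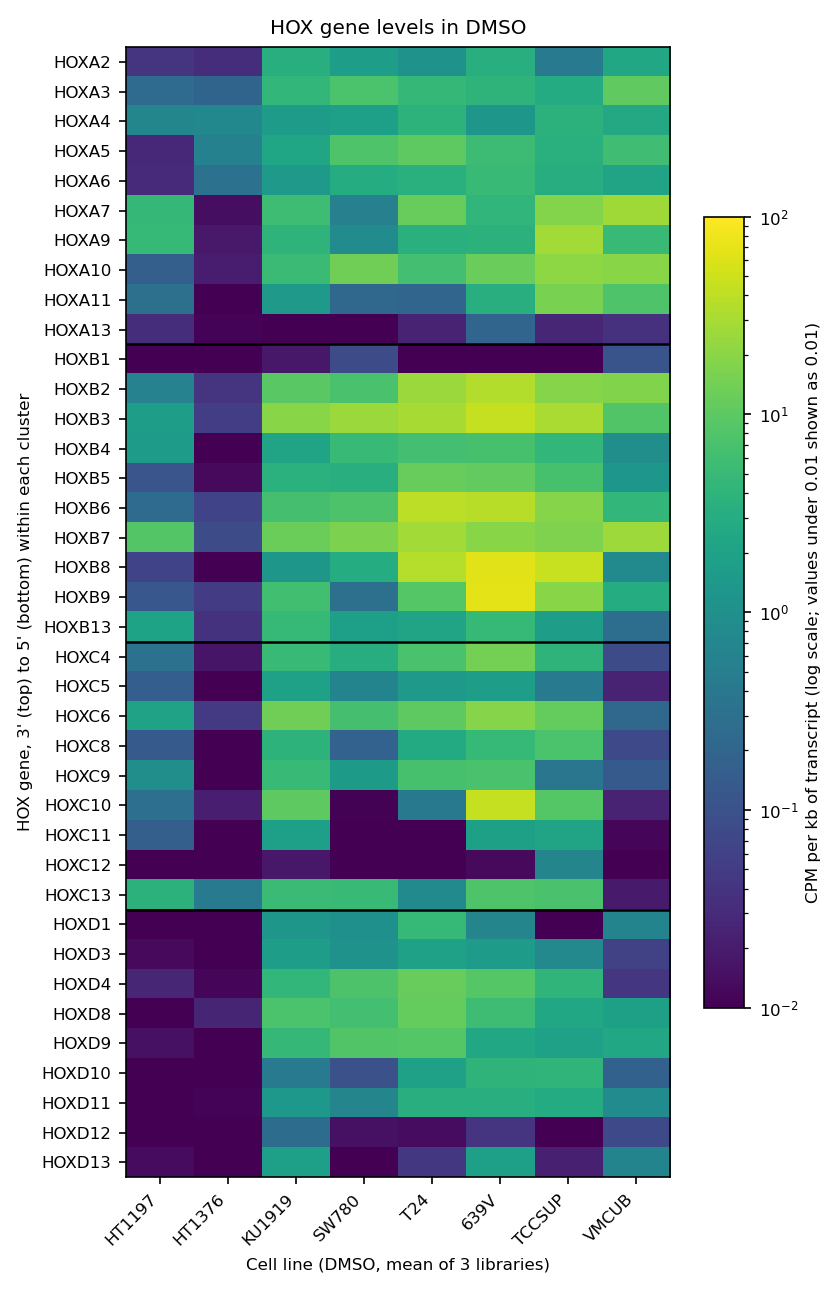
Mean DMSO level of 38 HOX genes (vertical axis, by cluster and from 3' to 5') in 8 lines (horizontal axis), as CPM per kb of transcript on a log colour scale, mean of 3 libraries. HT1376 is dark in nearly every gene, HT1197 is dark throughout HOXD and VMCUB throughout HOXC, while 639V has 35 of 38 genes at 1 CPM or more.

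Whole clusters were silent in some lines. The HOXD sum in DMSO was 0.154 ± 0.091 CPM in HT1197 and 0.118 ± 0.037 in HT1376 (SD, n = 3), against 12.1 ± 1.28 in VMCUB and 72.6 ± 5.92 in T24. The HOXC sum was 0.90 ± 0.24 CPM in VMCUB, where none of its 9 genes reached 1 CPM, and 145.7 ± 0.64 in 639V. In VMCUB the HOXA sum of 152.1 ± 11.4 CPM was close to that of TCCSUP, 167.9 ± 4.60, so that silence of HOXC went along with a high HOXA level in the same libraries. With each gene taken per kb of its median protein-coding transcript, HOXA had the highest sum of the clusters in VMCUB, at 83.0 CPM per kb, and in HT1376, at 1.91. HOXB had the highest in the other lines, up to 293.8 CPM per kb in 639V.

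Along the HOXA cluster the lines differed in which genes were on. In KU1919, T24, SW780 and VMCUB the HOXA genes at 1 CPM or more began at HOXA2 and ended at HOXA10 or HOXA11. HOXA13, known for digit and urogenital development, stood under 1 CPM in 7 lines and at 1.00 CPM in 639V. HOXB13, set apart from the rest of its cluster and known in the prostate, was at 5 CPM or more in 6 lines (between 5.97 in TCCSUP and 16.8 in 639V), although HOXB1 at the other end was under 1 CPM in all 8. HOXC13, a regulator of hair keratin genes, was on at 12.4 CPM in SW780, where HOXC10, HOXC11 and HOXC12 next to it were under 1 CPM.

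Among the highest genes of each cluster and line, HOXB9 of 639V, a thoracic patterning gene, stood at 68.6 ± 1.89 CPM per kb of transcript (SD, n = 3). HOXB8 led HOXB in TCCSUP at 46.2 ± 1.87 CPM per kb, HOXB6 in T24 at 39.7 ± 1.10, and HOXC10, a gene of lumbar patterning, led HOXC in 639V at 44.0 ± 1.25. In HOXA the highest gene was HOXA9, known from blood cell development and leukaemia, in TCCSUP at 27.6 ± 2.05 CPM per kb and in HT1197 at 4.72 ± 0.65. HOXA7 led HOXA in VMCUB at 27.1 ± 4.65, in T24 at 11.6 ± 1.79 and in KU1919 at 5.81 ± 0.57. HOXA10, which patterns the uterus, led HOXA in SW780 at 13.7 ± 0.50 and in 639V at 12.3 ± 0.47, and HOXA4 led it in HT1376 at 0.737 ± 0.036. In the HOXB cluster HOXB7 stood highest in VMCUB at 25.7 ± 7.43, in HT1197 at 8.40 ± 0.26 and in HT1376 at 0.084 ± 0.020, and HOXB3 in SW780 at 24.8 ± 0.76 and in KU1919 at 19.65 ± 1.303.

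In HOXC, HOXC6 was highest per kb in KU1919 at 13.8 ± 0.99, in TCCSUP at 11.2 ± 0.62, in T24 at 10.3 ± 0.064, in SW780 at 6.62 ± 1.04 and in VMCUB at 0.228 ± 0.067 CPM per kb. HOXC13 was highest in HT1197 at 3.65 ± 0.50 and in HT1376 at 0.434 ± 0.11. In HOXD, HOXD4 was highest in T24 at 11.6 ± 0.64, in 639V at 8.66 ± 0.42 and in TCCSUP at 4.10 ± 0.24. HOXD9 led in SW780 at 8.22 ± 0.29 and in VMCUB at 2.51 ± 0.20, and HOXD8 in KU1919 at 7.49 ± 0.20. In the silent HOXD clusters of HT1197 and HT1376 the highest genes were HOXD4 and HOXD8 at 0.026 ± 0.030 and 0.026 ± 0.029. These orders rest on transcript length: with merged exon length in place of the median transcript, the highest gene was the same in 19 of 32 combinations of cluster and line.

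CPI-0209 moved HOX genes both up and down, and which way depended on the line. In the 6 libraries of each line, the change from DMSO to CPI-0209, given as a log2 fold change, was tested by edgeR's quasi-likelihood test, adjusted over all genes by the method of Benjamini and Hochberg, and a gene is called at an adjusted p under 0.05. Over the 8 lines, 304 combinations of HOX gene and line gave 226 that passed the filter on low counts, of which 69 were called higher and 37 lower. A gene that is silent under DMSO passes the filter mainly where CPI-0209 raises it, so counts among tested genes favour rises and are read here beside the same count over all genes.

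In HT1197 5 of 22 tested HOX genes were called higher and 0 lower, against 11.8% higher and 7.8% lower of all genes tested. In HT1376 7 of 9 were higher and 0 lower, against 23.7% and 16%. In KU1919 8 of 35 were higher and 0 lower, against 9.3% and 2.4%. No HOX gene fell at an unadjusted edgeR p under 0.05 in these 3 lines, and DESeq2 called 0 lower in each. SW780 had 18 of 32 higher and 2 lower, against 30.8% and 30.3%, and VMCUB 12 of 28 higher and 2 lower, against 16.4% and 11%. In T24 5 of 31 were higher and 5 lower, against 9.37% and 0.93%, in 639V 6 of 35 higher and 18 lower, against 22.1% and 17.1%, and in TCCSUP 8 of 34 higher and 10 lower, against 25.7% and 23%. The share called higher was thus above that of all genes in every line but 639V and TCCSUP, and the share called lower was above it in T24, 639V and TCCSUP alone.

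Several of these counts changed when a library was left out. The 5 lower calls of T24 became 0 when any library but CPI-0209 replicate 3 was left out, and 6 without that library. The 8 higher calls of KU1919 became 1 without DMSO replicate 2, 2 without DMSO replicate 1, 3 without DMSO replicate 3, 4 without CPI-0209 replicate 2 and 12 without CPI-0209 replicate 1, where 2 were also called lower. Of the 5 higher calls in HT1197, 2 stood without DMSO replicate 2 or CPI-0209 replicate 3 and 3 without DMSO replicate 1, CPI-0209 replicate 1 or CPI-0209 replicate 2. The 2 lower calls of VMCUB became 0 without DMSO replicate 1 or any CPI-0209 library, 5 without DMSO replicate 3 and 3 without DMSO replicate 2, where the 12 higher calls became 16, and the 5 higher calls of T24 became 3 without DMSO replicate 3 or CPI-0209 replicate 2. With library totals in place of TMM scaling, which raised the median of all genes by 0.20 in SW780 (log2), the lower calls fell from 5 to 0 in T24 and from 2 to 0 in VMCUB. No called HOX gene changed sign under that scaling or under RLE size factors.

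**Figure D2:**
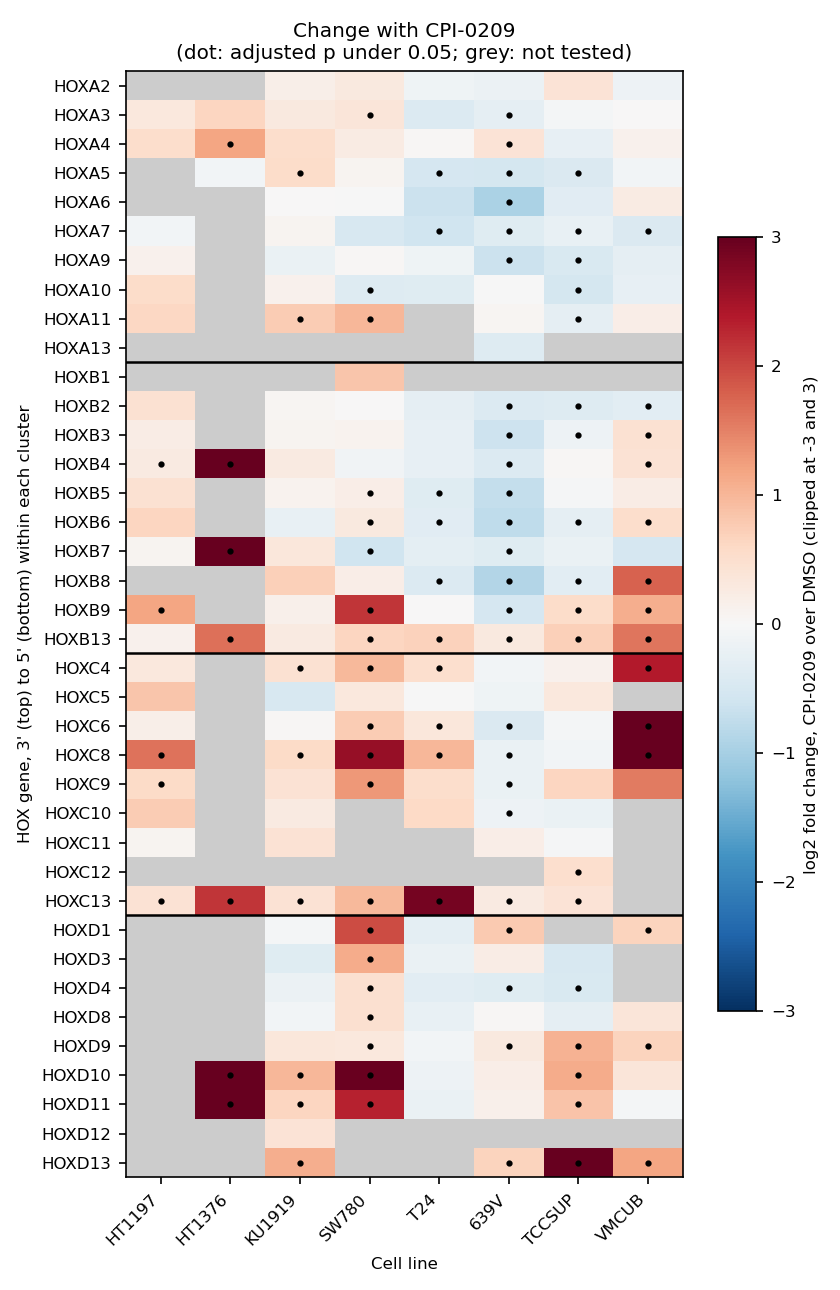
Log2 fold change of CPI-0209 over DMSO for 38 HOX genes (vertical axis) in 8 lines (horizontal axis), clipped at -3 and 3, with a dot for an edgeR adjusted p under 0.05 and grey where the gene was not tested. Dotted reds stand in most lines at HOXC13 and HOXB13, and in several lines at posterior HOXD genes. In HOXC they also stand at the central genes HOXC4, HOXC6 and HOXC8. In 639V 18 cells are dotted blue.

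Calls by position and cluster are given beside the share of all genes called in the same lines, weighted by how many HOX genes of the class each line tested. That share lay between 18% and 18.9% higher and between 13.2% and 13.9% lower for every class. Of the anterior genes (groups 1 to 3) 6 were called higher and 6 lower among 56 combinations of gene and line, 39 of them tested, or 15.4% in each direction. Central genes (groups 4 to 8) were called higher in 25 and lower in 23 of 120, 102 tested (24.5% and 22.5%), and posterior genes (groups 9 to 13) higher in 38 and lower in 8 of 128, 85 tested (44.7% and 9.41%). By cluster HOXA had 6 higher and 14 lower calls of 63 tested (9.52% and 22.2%), HOXB 19 and 17 of 66 (28.8% and 25.8%), HOXC 22 and 4 of 51 (43.1% and 7.84%), and HOXD 22 and 2 of 46 (47.8% and 4.35%). These shares carry no test. Posterior genes did not rise more often in every cluster. In HOXA, HOXA11 was called higher in 2 lines and lower in 1, and HOXA9 and HOXA10 were called lower in 2 each and higher in none. The central genes HOXC4, HOXC5, HOXC6 and HOXC8 were called higher in 4, 0, 3 and 5 lines, in that order. The posterior genes HOXC9, HOXC10, HOXC11, HOXC12 and HOXC13 were called higher in 2, 0, 0, 1 and 7 lines. The median log2 fold change over tested combinations was -0.05 for HOXA, 0.10 for HOXB, 0.43 for HOXC and 0.35 for HOXD, where the medians of all genes in single lines lay between -0.01 and 0.04. No tested HOX gene had a log2 fold change at or below -1 in any line, while 29 combinations lay at or above 1.

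HOXC13, at the 5' end of its cluster (ENSG00000123364, chromosome 12, 53938765 to 53946544, GRCh38), was called higher in 7 lines and was not tested in VMCUB. In T24 its DMSO libraries held 1.42, 1.96 and 2.48 CPM and its CPI-0209 libraries 13.01, 14.1 and 14.8. The groups did not overlap, and the log2 fold change was 2.86 ± 0.20 (SE, edgeR adjusted p = 0.000301). In HT1376, where HOXC13 was 1 of the 2 HOX genes on, DMSO libraries held 1.203, 1.21 and 0.742 CPM and CPI-0209 libraries 3.99, 5.15 and 4.72, a log2 fold change of 2.15 ± 0.19 (edgeR adjusted p = 2.16e-05). In SW780 the libraries went from 12.0, 12.2 and 13.1 to 26.2, 23.2 and 25.4 CPM, and the log2 fold change was 0.98 ± 0.06 (edgeR adjusted p = 1.7e-10). The other rises were below 0.5 on the log2 scale: 0.44 ± 0.09 in HT1197 (adjusted p = 0.00144), 0.43 ± 0.09 in KU1919 (0.0207), 0.40 ± 0.06 in TCCSUP (0.000202) and 0.28 ± 0.05 in 639V (0.000749), all edgeR values. The KU1919 call was lost without any 1 DMSO library or CPI-0209 replicate 2, with adjusted p from 0.0534 to 0.124. In VMCUB HOXC13 went from 0.063, 0.028 and 0.049 CPM to 0.173, 0.445 and 0.389, and without a filter its log2 fold change was 2.80 (edgeR adjusted p = 0.0109).

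HOXC8, HOXC6 and HOXC4, which pattern the trunk, were all called higher in VMCUB, SW780 and T24. HOXC5, which lies between HOXC6 and HOXC4, was not called in SW780 (0.33 ± 0.29, edgeR adjusted p = 0.348) or T24 (-0.02 ± 0.16, edgeR adjusted p = 0.973). In VMCUB HOXC5 was not tested. The annotated span of HOXC6 overlaps those of HOXC4 and HOXC8 on the same strand, so some reads could belong to either gene of a pair. In VMCUB, whose HOXC cluster was silent, HOXC6 (ENSG00000197757, chromosome 12, 53990624 to 54030823) held 0.191, 0.341 and 0.244 CPM in DMSO and 2.43, 2.11 and 1.85 in CPI-0209 libraries. Every treated library was higher, with a log2 fold change of 3.08 ± 0.23 (edgeR adjusted p = 0.000264). HOXC8 there rose by 3.24 ± 0.50 (edgeR adjusted p = 0.00438) and HOXC4 by 2.39 ± 0.37 (edgeR adjusted p = 0.00441), and the HOXC sum went from 0.90 ± 0.24 to 5.33 ± 0.54 CPM (SD, n = 3). The treated HOXC sum of VMCUB was still far under the DMSO sums of T24, 43.5 ± 2.51 CPM, or 639V. In SW780 HOXC8 went from 0.375, 0.290 and 0.364 CPM to 2.24, 2.08 and 2.10 (2.62 ± 0.20, edgeR adjusted p = 1.27e-09). HOXC8 also rose in HT1197 by 1.64 ± 0.33 (edgeR adjusted p = 0.00225), in T24 by 0.99 ± 0.13 (edgeR adjusted p = 0.00281) and in KU1919 by 0.57 ± 0.09 (edgeR adjusted p = 0.00762, and 0.057 without DMSO replicate 2). HOXC6 rose by 0.77 ± 0.09 in SW780 (edgeR adjusted p = 4.35e-07) and by 0.35 ± 0.08 in T24 (edgeR adjusted p = 0.0421), the latter a call lost without any 1 of the 6 libraries (adjusted p 0.0635 to 0.178). In HT1197, whose HOXC sum of 14.4 CPM in DMSO was below the 28.7 CPM of SW780, HOXC6 (0.18 ± 0.14, edgeR adjusted p = 0.412) and HOXC4 (0.31 ± 0.31, edgeR adjusted p = 0.555) were not called.

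HOXC4 was called higher in KU1919, SW780, T24 and VMCUB and lower nowhere. In SW780 its libraries went from 5.17, 4.89 and 5.06 to 9.95, 10.4 and 9.67 CPM (0.96 ± 0.08, edgeR adjusted p = 4.49e-09). Its calls in KU1919 (0.46 ± 0.09, edgeR adjusted p = 0.0166) and T24 (0.51 ± 0.08, edgeR adjusted p = 0.00871) were each lost in some fits that left out a library, with adjusted p up to 0.108 in KU1919 without DMSO replicate 2 and 0.0601 in T24 without DMSO replicate 3. HOXC9 rose in HT1197, from 1.34, 1.25 and 1.75 to 2.10, 2.15 and 2.11 CPM (0.57 ± 0.17, edgeR adjusted p = 0.0234), a call lost without any 1 library but DMSO replicate 3 (adjusted p 0.0576 to 0.0955). HOXC9 also rose in SW780, by 1.31 ± 0.12 (edgeR adjusted p = 2.8e-08). HOXC12 was on in TCCSUP alone, at 2.22 ± 0.44 CPM (SD, n = 3), and rose there by 0.51 ± 0.16 (edgeR adjusted p = 0.0169), a call lost without DMSO replicate 1 or CPI-0209 replicate 1 (adjusted p up to 0.0659). In 639V, which had the highest HOXC sum, HOXC6, HOXC8, HOXC9 and HOXC10 were called lower instead, by 0.16 to 0.44 on the log2 scale. Of these 639V calls, those of HOXC8, HOXC9 and HOXC10 were lost in some fits that left out a library (edgeR adjusted p up to 0.129, 0.0726 and 0.0571) and with library totals (0.117, 0.0748 and 0.0784).

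**Figure D3:**
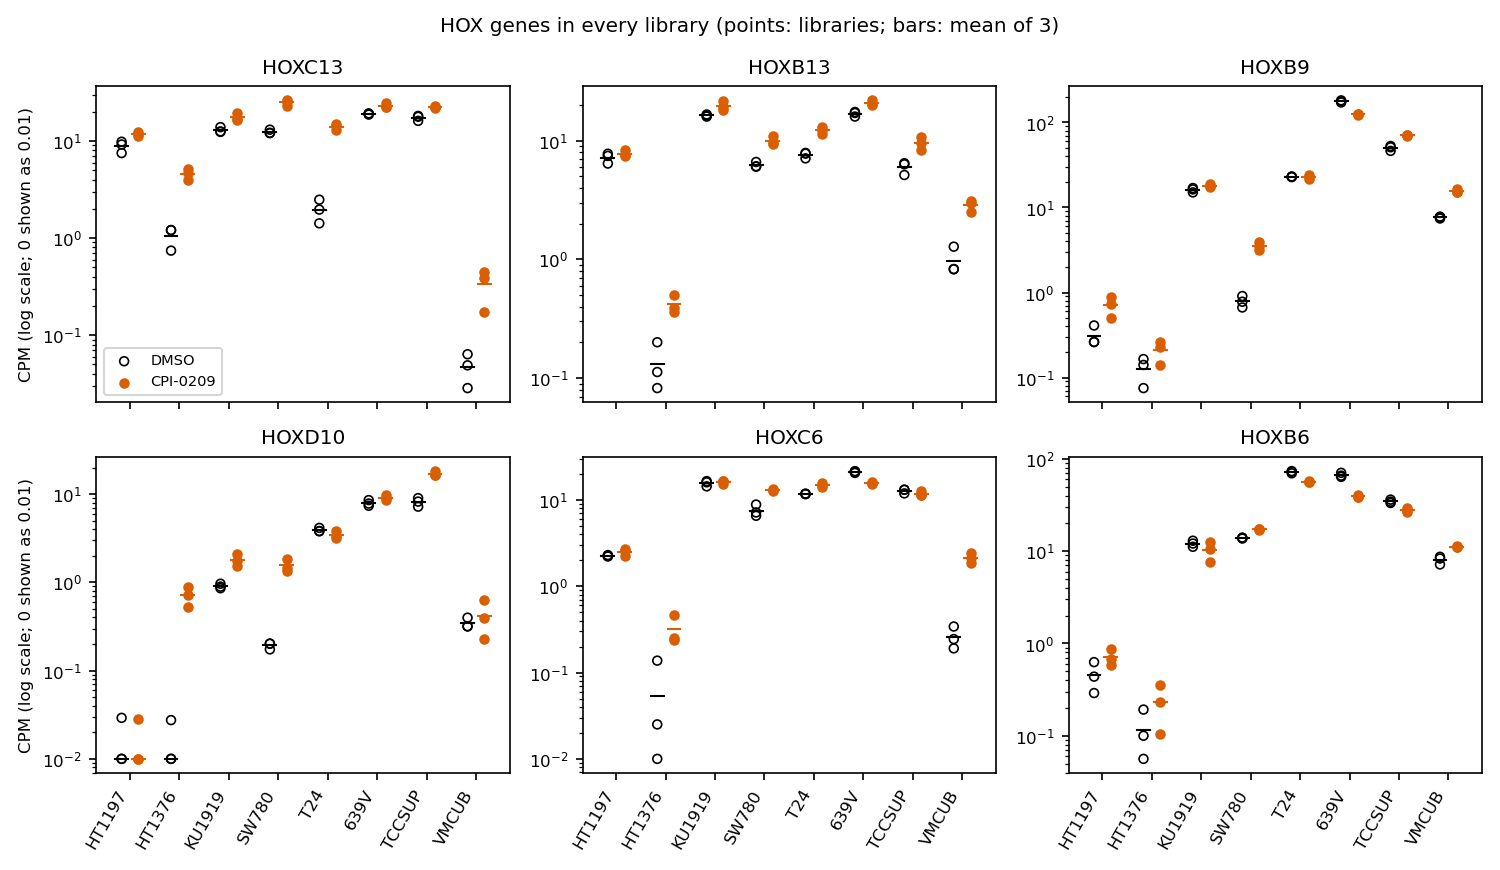
CPM on a log scale (vertical axis) in every library of 8 lines (horizontal axis) for HOXC13, HOXB13, HOXB9, HOXD10, HOXC6 and HOXB6, with open points for DMSO, filled points for CPI-0209, bars for the mean of 3, and values of 0 drawn at 0.01. HOXC13 in T24 goes from at most 2.48 to at least 13.01 CPM, while HOXB6 in 639V goes the other way, from at least 63.7 to at most 40.1.

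In HOXD, the posterior genes HOXD9 to HOXD13, which pattern limbs and the urogenital tract, accounted for most of the calls. HOXD10 (ENSG00000128710, chromosome 2, 176108790 to 176119942) and HOXD11 (ENSG00000128713, chromosome 2, 176104216 to 176109754), the genes whose promoters are printed above, were both called higher in HT1376, KU1919, SW780 and TCCSUP. Their annotated spans overlap on 1 strand, so some reads could belong to either. In HT1376 HOXD10 had 1 count in all 3 DMSO libraries together and 71 in CPI-0209, a ratio of 82.2 with a 95% counting interval of 14.3 to 3292 (edgeR adjusted p = 6.76e-05). HOXD11 had 2 and 108 counts there, a ratio of 62.5 with an interval of 16.9 to 522.8 (edgeR adjusted p = 5.27e-05). The treated libraries reached only 0.893, 0.533 and 0.725 CPM of HOXD10, less than the DMSO level of T24, TCCSUP, KU1919 or 639V.

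In SW780 HOXD10 went from 0.202, 0.174 and 0.202 to 1.85, 1.35 and 1.47 CPM (2.97 ± 0.25, edgeR adjusted p = 6.35e-09), and HOXD11 from 1.18, 0.909 and 0.971 to 4.54, 5.25 and 5.46 (2.31 ± 0.14, edgeR adjusted p = 6.15e-11). All 7 tested HOXD genes rose in SW780. Among them the anterior gene HOXD1 went from 2.02, 1.97 and 1.96 to 8.55, 7.26 and 7.80 CPM, with a log2 fold change of 1.96 ± 0.11 (edgeR adjusted p = 1.51e-11), the smallest p of any HOX gene in that line. HOXD3 rose by 1.11 ± 0.15 (edgeR adjusted p = 7.21e-06), and HOXD4, HOXD8 and HOXD9 by 0.31 to 0.48. The HOXD sum in SW780 went from 41.4 ± 0.74 to 68.4 ± 1.73 CPM (SD, n = 3).

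Among the HOXD genes that passed the filter in TCCSUP, those called higher were all posterior. HOXD10 went from 9.01, 8.24 and 7.22 to 16.6, 18.2 and 16.5 CPM (1.10 ± 0.09, edgeR adjusted p = 5.13e-07), HOXD11 rose by 0.86 ± 0.09 (edgeR adjusted p = 7.72e-06) and HOXD9 by 1.04 ± 0.12 (edgeR adjusted p = 1.7e-05). HOXD13 (ENSG00000128714, chromosome 2, 176092891 to 176095938), known from digit malformations, had 5 counts in DMSO, all in replicate 1, and 210 in CPI-0209, at 1.80, 1.96 and 1.72 CPM (5.19 ± 0.54, edgeR adjusted p = 1.1e-05). HOXD4 of the same cluster fell by 0.47 ± 0.11 (edgeR adjusted p = 0.0029), and HOXD1, which was too low for the filter, had 2 counts in DMSO and 26 in CPI-0209, a ratio of 11.8 with a 95% counting interval of 2.95 to 102.5. This anterior gene was called higher without a filter (edgeR adjusted p = 0.000444), by DESeq2 and in 1 fit of 48 libraries. In KU1919 HOXD13 was on before treatment and went from 4.30, 4.30 and 3.63 to 8.43, 7.97 and 9.54 CPM (1.08 ± 0.12, edgeR adjusted p = 0.00179). HOXD10 rose there by 0.99 ± 0.18 (edgeR adjusted p = 0.0129), a call lost without any 1 DMSO library (adjusted p up to 0.0693), and the HOXD11 call was lost without any 1 library but CPI-0209 replicate 1 (adjusted p up to 0.124). HOXD13 also rose in 639V, by 0.68 ± 0.10, and in VMCUB, by 1.18 ± 0.23 (edgeR adjusted p = 9.43e-05 and 0.0109), the latter at 0.0519 without CPI-0209 replicate 2. In the other 4 lines HOXD13 was below the filter, and TCCSUP passed it only through the treated libraries, so that 4 of 4 tested lines were called higher says little. In T24 it went the other way, from 13 counts in DMSO to 3 in CPI-0209, a ratio of 0.211 with a 95% counting interval of 0.0386 to 0.768, and its libraries overlapped (edgeR adjusted p = 0.36 without a filter).

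In 639V, TCCSUP and T24 HOXB13, at the 5' end of HOXB, was called higher while genes of the body were called lower. The lower calls of T24 were lost in most fits that left out a library. In HT1197, HT1376, SW780 and VMCUB central HOXB genes were called higher, and 1 was called lower in SW780. HOXB13 (ENSG00000159184, chromosome 17, 48724763 to 48729178) was called higher in 6 lines, HT1376, SW780, T24, 639V, TCCSUP and VMCUB. In VMCUB it went from 0.825, 1.28 and 0.830 to 3.12, 2.51 and 3.01 CPM (1.61 ± 0.20, edgeR adjusted p = 0.00184), and in T24 from 7.78, 7.88 and 7.09 to 11.4, 12.3 and 13.01 (0.70 ± 0.09, edgeR adjusted p = 0.00297). In HT1376 it rose by 1.66 ± 0.39 (edgeR adjusted p = 0.00844), in TCCSUP by 0.73 ± 0.11 (edgeR adjusted p = 0.000128), in SW780 by 0.64 ± 0.08 (edgeR adjusted p = 2.43e-06) and in 639V by 0.29 ± 0.06 (edgeR adjusted p = 0.00101). It was not called in KU1919 (0.27 ± 0.08, edgeR adjusted p = 0.0737) or HT1197 (0.13 ± 0.09, edgeR adjusted p = 0.374).

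HOXB9 (ENSG00000170689, chromosome 17, 48621159 to 48626356) moved in opposite directions. In VMCUB its libraries went from 7.65, 7.43 and 7.81 to 16.3, 15.4 and 15.3 CPM (1.09 ± 0.07, edgeR adjusted p = 0.00015), in SW780 from 0.780, 0.909 and 0.667 to 3.92, 3.56 and 3.18 (2.14 ± 0.16, edgeR adjusted p = 1.13e-09), and in TCCSUP from 46.3, 52.8 and 51.1 to 71.4, 70.1 and 72.2 (0.54 ± 0.05, edgeR adjusted p = 3.53e-06). In 639V, where it was highest, it went from 172, 177.1 and 181.8 to 121.3, 124.8 and 126.7 CPM (-0.51 ± 0.04, edgeR adjusted p = 3.35e-07). The groups did not overlap in these 4 lines. In HT1197 it rose by 1.18 ± 0.32 (edgeR adjusted p = 0.0174), a call lost without DMSO replicate 2 or 3 or CPI-0209 replicate 2 or 3 (adjusted p 0.0569 to 0.0859). In T24 it stood at 23.0 CPM before and 22.9 CPM after treatment (0.01 ± 0.09, edgeR adjusted p = 0.972).

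The body of HOXB fell in 639V, which had the most HOXB RNA. Its HOXB sum went from 505.5, 525.7 and 513.4 CPM to 347.1, 366 and 352.9, and 8 of 9 tested HOXB genes were called lower, HOXB13 alone being higher. HOXB6 went from 65.6, 70.4 and 63.7 to 38.9, 40.1 and 38.6 CPM (-0.77 ± 0.05, edgeR adjusted p = 1.65e-08). HOXB3, a hindbrain and pharyngeal gene, went from 77.0, 74.7 and 77.0 to 50.6, 49.9 and 48.2 (-0.63 ± 0.04, edgeR adjusted p = 5.38e-08), and HOXB8 from 47.1, 49.9 and 50.8 to 24.5, 29.6 and 27.0 (-0.87 ± 0.06, edgeR adjusted p = 1.11e-07). HOXB5 fell by 0.72 ± 0.06 (edgeR adjusted p = 4.23e-07). In VMCUB HOXB genes moved both ways. HOXB3, HOXB4, HOXB6 and HOXB8 were called higher (HOXB4 not without DMSO replicate 1 or any 1 CPI-0209 library, edgeR adjusted p up to 0.0746). HOXB8 went from 0.603, 0.797 and 0.366 to 1.80, 1.94 and 2.04 CPM (1.77 ± 0.26, edgeR adjusted p = 0.00346). HOXB2 was called lower there (-0.31 ± 0.09, edgeR adjusted p = 0.0375), a call lost without DMSO replicate 1 or any 1 CPI-0209 library. HOXB7 was lower in every CPI-0209 library but not called (-0.50 ± 0.18, edgeR adjusted p = 0.0761). The HOXB sum of VMCUB overlapped between treatments, at 99.8 ± 13.4 CPM in DMSO and 102.5 ± 0.23 in CPI-0209 (SD, n = 3). In T24 HOXB8 fell by 0.41 ± 0.09 (edgeR adjusted p = 0.0251), a call lost without any 1 library but CPI-0209 replicate 3 (adjusted p 0.0642 to 0.12).

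HOXB7 and HOXB4 rose from near silence in HT1376. HOXB7, a gene of thoracic patterning (ENSG00000260027, chromosome 17, 48607227 to 48633572), went there from 0.125, 0.084 and 0.137 to 2.02, 1.74 and 2.28 CPM (4.10 ± 0.27, edgeR adjusted p = 2.23e-06), the smallest p of any HOX gene in that line. HOXB4, known for expanding blood stem cells, went from 3 to 50 counts, a ratio of 19.3 with a 95% counting interval of 6.23 to 96.7 (edgeR adjusted p = 0.000318). In SW780, where HOXB7 was on, it went the other way, from 21.7, 21.3 and 22.8 to 16.3, 13.9 and 14.2 CPM (-0.60 ± 0.07, edgeR adjusted p = 2.54e-07). HOXB4 was also called in HT1197 (0.26 ± 0.09, edgeR adjusted p = 0.0459), a call lost without any 1 of the 6 libraries (adjusted p 0.0618 to 0.184) and with DESeq2 (adjusted p = 0.236).

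In HOXA falls outnumbered rises. In 639V HOXA6 went from 5.14, 5.12 and 4.99 to 2.71, 2.42 and 2.83 CPM, the largest fall of any tested HOX gene in any line (-0.94 ± 0.10, edgeR adjusted p = 4.21e-06). HOXA9 (ENSG00000078399, chromosome 7, 27162435 to 27175180) fell there by 0.64 ± 0.10 (edgeR adjusted p = 9.43e-05), and in TCCSUP, where it led the cluster, it went from 42.6, 38.5 and 37.0 to 27.7, 26.1 and 29.5 CPM (-0.46 ± 0.07, edgeR adjusted p = 0.000101). HOXA10 of TCCSUP went from 49.4, 45.1 and 43.2 to 32.9, 29.3 and 31.5 CPM (-0.52 ± 0.07, edgeR adjusted p = 2.8e-05). In TCCSUP all 3 treated libraries had thus less HOXA9 and HOXA10 and more HOXB9 than all 3 DMSO libraries. HOXA7 (ENSG00000122592, chromosome 7, 27153716 to 27157936) was called lower in T24, 639V, TCCSUP and VMCUB, by 0.23 to 0.59, and each of these calls was lost in some fits that left out a library. The T24 call was lost without any 1 library but CPI-0209 replicate 3 (edgeR adjusted p 0.0827 to 0.171), the VMCUB call without DMSO replicate 1 or any 1 CPI-0209 library (0.0691 to 0.111), the 639V call without DMSO replicate 2 (0.0629) and the TCCSUP call without DMSO replicate 2 or CPI-0209 replicate 2 (up to 0.0606). With library totals the T24 and VMCUB calls were lost as well (edgeR adjusted p = 0.0862 and 0.0523). In VMCUB it went from 32.8, 42.1 and 30.8 to 24.7, 24.2 and 25.9 CPM (-0.44 ± 0.11, edgeR adjusted p = 0.0289). Less RNA from a gene in every cell and fewer cells with that RNA cannot be told apart in these bulk libraries.

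HOXA5, a gene of lung development, was called lower in T24, 639V and TCCSUP and higher in KU1919. In KU1919 it went from 4.17, 3.72 and 3.599 to 5.77, 5.71 and 5.42 CPM (0.55 ± 0.11, edgeR adjusted p = 0.0151), a call lost without any 1 DMSO library or CPI-0209 replicate 2 (adjusted p 0.0512 to 0.0915). In T24 it went from 16.7, 19.2 and 15.1 to 10.5, 11.8 and 13.2 CPM (-0.51 ± 0.11, edgeR adjusted p = 0.0302), a call lost without any 1 library but CPI-0209 replicate 3 (adjusted p 0.0595 to 0.124). HOXA11, which acts in kidney and forearm, rose in KU1919 (0.77 ± 0.17) and SW780 (1.00 ± 0.21) and fell in TCCSUP (-0.26 ± 0.05, edgeR adjusted p = 0.0263, 0.00044 and 0.00108 in that order), the KU1919 call being lost without DMSO replicate 1, DMSO replicate 2 or CPI-0209 replicate 3 (adjusted p up to 0.121). HOXA4 rose in HT1376 from 1.25, 1.15 and 1.26 to 2.86, 2.77 and 2.61 CPM (1.19 ± 0.14, edgeR adjusted p = 0.000132). HOXA13 in KU1919 had 0 counts in the 3 DMSO libraries and 71 in CPI-0209, at least 25.98-fold higher when the DMSO group is set to a floor of 3 counts, but the reads lay mostly in replicate 1, at 1.83 CPM against 0.067 and 0.024 in the others, and without a filter the edgeR adjusted p was 0.464.

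Across genes, change went with the starting level. In every line the log2 fold change of the tested HOX genes was lower where their DMSO level was higher, with Spearman's rho of -0.82 in HT1376 (n = 9 genes), -0.77 in VMCUB (28), -0.71 in HT1197 (22), -0.53 in SW780 (32), -0.52 in 639V (35), -0.50 in T24 (31), -0.36 in TCCSUP (34) and -0.28 in KU1919 (35). Over all genes tested rho also lay below 0 in each line, between -0.51 and -0.31. These are descriptions across genes, which are not independent replicates: the DMSO libraries enter both axes, and the filter keeps low genes mainly where they rise. With the level taken from 1 DMSO library and the fold change from the other 2, rho lay between -0.88 and -0.16 over lines and libraries, with the value nearest to 0 at -0.44 in HT1197, -0.32 in T24 and -0.56 in VMCUB. Without a filter rho was -0.26 in HT1197, -0.34 in T24, -0.45 in VMCUB, -0.54 in HT1376 and -0.35 in 639V, nearer to 0 than with it, and -0.71 in SW780, -0.40 in TCCSUP and -0.34 in KU1919, farther from 0. Whether the rho of HOX genes lay beyond that of all genes therefore changed with the processing: over all filtered genes it was -0.36 in HT1197 and -0.46 in T24.

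**Figure D4:**
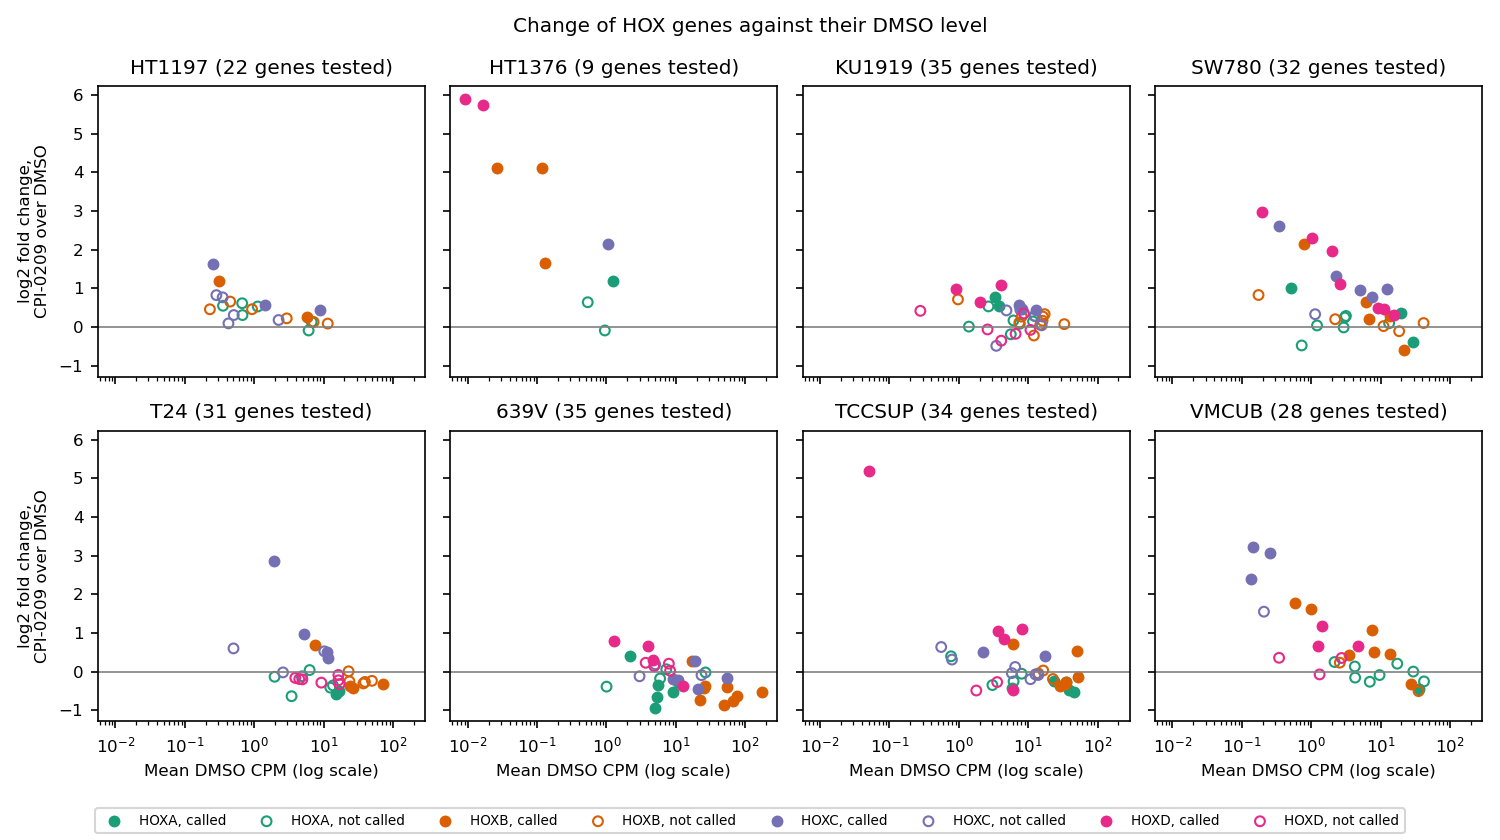
Log2 fold change of CPI-0209 over DMSO (vertical axis) against mean DMSO CPM on a log scale (horizontal axis) for the tested HOX genes of each line, coloured by cluster, filled where called at an edgeR adjusted p under 0.05. In HT1376 the 5 genes under 0.5 CPM at the left lie above 1, but they passed the filter only through their treated libraries, which favours rises. In T24, 639V and TCCSUP the genes at 10 CPM or more lie mostly below 0.

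Counted by level, all calls of a fall lay at 1 CPM or more. Below that level falls were rare over all genes as well, so their absence says little about HOX genes. Below 0.1 CPM in DMSO, 72 combinations of gene and line gave 4 that were tested, all 4 called higher, as were 89.2% to 100% of all genes tested there by line. Genes this low pass the filter only through the treated libraries, so this count says nothing about HOX genes. From 0.1 to 1 CPM 14 of 36 tested were higher and 0 lower, or 38.9% higher. Of all genes tested in that range, 14.0% to 41.2% were called higher and 0.0371% to 3.07% lower by line. Some of these HOX genes, such as HOXB7 and HOXB13 of HT1376, also passed the filter only through the treated libraries. This count therefore favours rises too. From 1 to 10 CPM 38 of 104 were higher and 7 lower (36.5% and 6.73%), and over all genes 17.3% to 45.6% and 0.619% to 12.5%. At 10 CPM or more 13 of 82 were higher and 30 lower (15.9% and 36.6%), and over all genes 2.47% to 22.8% and 1.3% to 46.5%. These spans over lines are wide. With all genes weighted by the HOX genes tested in each line, the shares were 24.7% higher and 0.909% lower at 0.1 to 1 CPM. They were 28.5% higher and 6.02% lower at 1 to 10 CPM and 11.5% higher and 20.2% lower at 10 CPM or more. In the lines with more than 1 HOX gene tested at 10 CPM or more, 13 of 17 HOX genes were lower in 639V, where 23.8% of all genes at that level were, 8 of 16 in TCCSUP (34.2%), 5 of 18 in T24 (1.3%), 2 of 7 in VMCUB (16.8%), 2 of 11 in SW780 (46.5%) and 0 of 12 in KU1919 (3.28%). The T24 calls are those lost without any 1 library but CPI-0209 replicate 3.

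Positions were also counted within a range of levels. At 1 to 10 CPM, 21 of 40 posterior combinations were called higher and 1 lower, against 13 higher and 6 lower of 47 central and 4 higher and 0 lower of 17 anterior ones. At 10 CPM or more the posterior genes had 7 higher and 7 lower of 26, the central genes 4 and 17 of 39 and the anterior genes 2 and 6 of 17. At 0.1 to 1 CPM 7 of 16 tested posterior, 7 of 15 central and 0 of 5 anterior combinations were called higher. By cluster at 10 CPM or more, HOXC had 6 higher and 3 lower of 16 and HOXB 4 higher and 17 lower of 40. HOXA had 1 and 9 of 19 there, and HOXD 2 and 1 of 7. At 1 to 10 CPM HOXB had 8 higher and 0 lower of 14 and HOXC 11 and 1 of 22. HOXA had 4 and 5 of 36 at that level, and HOXD 15 and 1 of 32. The shares of all genes at these levels are given above. HOXB9 of TCCSUP, at 50.1 CPM, and HOXC13 of 639V, at 19.0 CPM, were among the high genes that rose. Genes of a line share its libraries, and these counts carry no test.

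**Figure D5:**
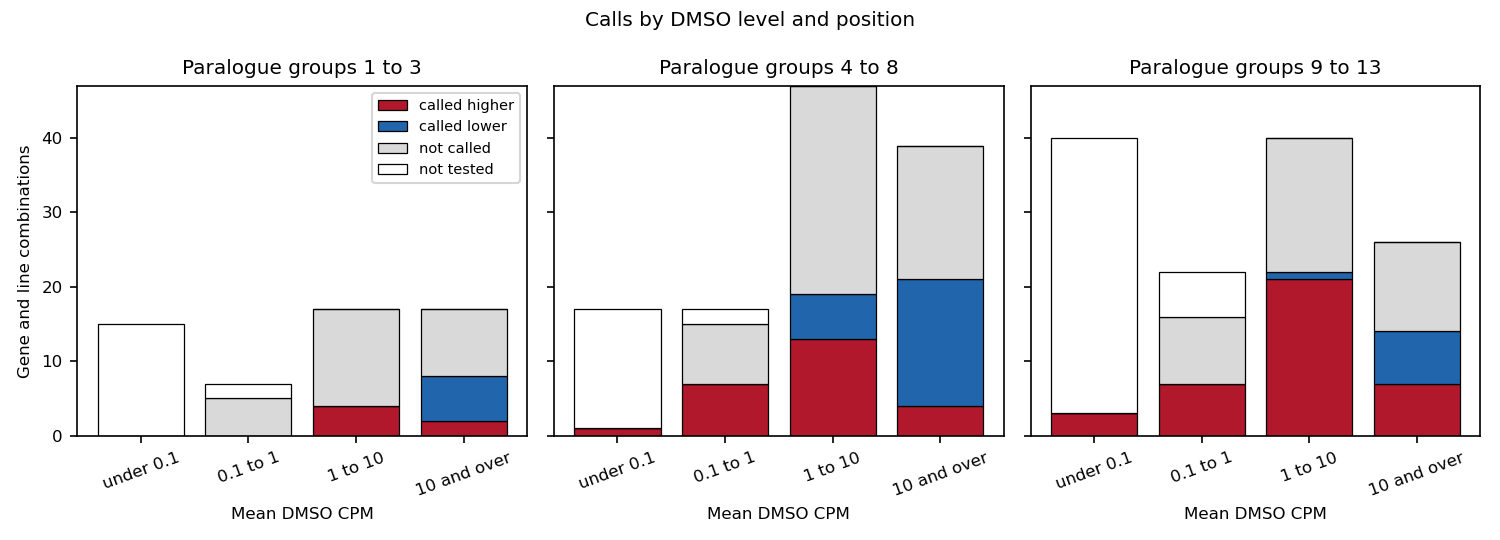
Number of combinations of HOX gene and line (vertical axis) by mean DMSO CPM (horizontal axis) and paralogue group (panels), split into called higher, called lower, not called and not tested at an edgeR adjusted p under 0.05. Falls appear only from 1 CPM up, below which falls were rare over all genes as well. The posterior groups have 21 rises and 1 fall at 1 to 10 CPM.

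The same order appeared for a single gene across lines. Of the 28 HOX genes tested in at least 6 lines, 27 had a negative Spearman rho between their DMSO level and their log2 fold change over those lines, and HOXA7 had 0, with a median of -0.86. HOXB4 had -0.98 over 8 lines: it rose from 3 to 50 counts in HT1376, and in 639V, where it was highest, it fell by 0.42 ± 0.05 (edgeR adjusted p = 2.2e-05). As above, the DMSO libraries enter both values, the filter keeps lines with a low level mainly where the gene rises, and 6 to 8 lines are few. The same count was not made over all genes, so it cannot be read as particular to HOX genes. Without a filter rho was nearer to 0 for some genes, as in HOXA11 (-0.886 with the filter, -0.179 without) and HOXD10 (-0.571 and -0.31). It was farther from 0 for others, as in HOXA2 (-0.543 and -0.714) and HOXD8 (-0.2 and -0.667).

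Responses differed between lines for most HOX genes. An F test of the interaction of line and treatment on all 48 libraries (edgeR, Benjamini-Hochberg) passed the threshold for 32 of 38 HOX genes, against 58.7% of all genes tested. The smallest adjusted p belonged to HOXB9 (7.95e-18), followed by HOXC13 (7.25e-16), HOXC6 (4.58e-14), HOXD11 (5.65e-13), HOXD10 (9.56e-13), HOXC8 (1.16e-12), HOXB4 (7.99e-12) and HOXD1 (7.68e-10). In all, 14 HOX genes were called higher in at least 1 line and lower in another: HOXA3, HOXA5, HOXA11, HOXB3, HOXB4, HOXB5, HOXB6, HOXB7, HOXB8, HOXB9, HOXC6, HOXC8, HOXC9 and HOXD4. The 12 called only higher were HOXA4, HOXB13, HOXC4, HOXC12, HOXC13, HOXD1, HOXD3, HOXD8, HOXD9, HOXD10, HOXD11 and HOXD13, and the 6 called only lower HOXA6, HOXA7, HOXA9, HOXA10, HOXB2 and HOXC10. HOXA2, HOXA13, HOXB1, HOXC5, HOXC11 and HOXD12 were called in no line.

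With replicates summed and line as a term, 1 of 35 tested HOX genes had a shared response, HOXB13 at 0.69 ± 0.18 (edgeR adjusted p = 0.0394), where 7.31% of all genes were called higher and 4.41% lower. None was called lower, at an unadjusted edgeR p under 0.05 none fell, and DESeq2 called 0 lower and 6 higher. The HOXB13 call was lost without HT1376, SW780, T24, 639V, TCCSUP or VMCUB, with adjusted p from 0.0608 to 0.0858. HOXC13 missed the threshold at 1.13 ± 0.34 (edgeR adjusted p = 0.0571), with a rise in all 7 lines tested.

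Among the 3 MEIS genes, which encode HOX cofactors, MEIS3 was called higher in all 8 lines, with log2 fold changes from 0.23 to 5.04. Its largest rise was in HT1376, where it went from 0.222 ± 0.046 to 7.31 ± 0.87 CPM (SD, n = 3, edgeR adjusted p = 6.61e-08). MEIS1 was higher in 4 lines and lower in none, and MEIS2 was higher in 2 and lower in 2.

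Of 14 protein-coding genes next to the clusters, SNX10, a sorting nexin gene near HOXA, was called higher in 6 lines, and in TCCSUP it went from 1.35 ± 0.079 to 9.84 ± 0.58 CPM while HOXA9 and HOXA10 fell. HIBADH, also near HOXA, was lower in 4 lines, CALCOCO1 near HOXC higher in 2, and SKAP2 near HOXA higher in 1 and lower in 1. Among 20 regulators of HOX genes, RARB, a retinoic acid receptor gene, was higher in 6 lines and lower in TCCSUP, and CDX2, a caudal homeobox gene, was higher in 3 and lower in none. RARG was higher in 2 lines and lower in 2. SUZ12, a core subunit of PRC2, was lower in 5 lines and fell by 0.21 ± 0.05 over the 8 (edgeR adjusted p = 0.0249). EED, another core subunit, was lower in 1 line and EZH2 higher in 2. The 18 noncoding RNAs of the clusters looked up by symbol are not analysed here.

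The annotation limits which gene a count belongs to. GENCODE 29 gives 15 pairs of these HOX genes whose spans overlap on the same strand, involving 22 of the 38, among them HOXB3 with HOXB4, HOXB5 and HOXB6, HOXB7 with HOXB8 and HOXB9, HOXC6 with HOXC8 and HOXC9, and HOXA9 with HOXA10. The sources used here do not give whether strand was used in counting, so antisense transcripts of the clusters may enter as well. HOXC13, HOXB13 and HOXD13 overlap no other HOX gene of the 38.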

How the data were processed

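The deposited table holds whole-number read counts per Ensembl gene for 48 libraries, which the authors made, per the submitters' processing notes, with STAR 2.7.3a and RSEM 1.3.1 on hg38. RSEM estimates need not be whole, and how the counts became whole, their annotation and strand setting are not given in the sources used here. Per the labels' protocols, total RNA was extracted with Trizol and sequenced as paired-end reads. Libraries were grouped by line and treatment from their labels. Of 35535 genes, 35414 took their symbol from a gene name table, and GENCODE 29 gave coordinates and transcript lengths. No entry lacked a gene name, and no column of other samples was used.

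Counts were analysed with edgeR 4.0.16, DESeq2 1.42.0 and limma 3.58.1 under R 4.3.3, and the tables and figures were made with scipy 1.17.1, matplotlib 3.10.9 and Python 3.11.15. Each line's 6 libraries, which leave 4 residual degrees of freedom, were filtered with filterByExpr, scaled by TMM and fitted by edgeR's quasi-likelihood method in its robust form. P-values were adjusted over all genes by Benjamini-Hochberg, with a threshold of 0.05. The shared response used 16 sums over replicates, and the differences between lines an F test of 7 interaction terms. CPM used TMM over the 48 libraries, so ratios of CPM differ from fitted fold changes by a median of -0.05 to 0.03 (log2) per line. SE is the absolute log2 fold change over the root of F. A fold from 0 DMSO counts is a lower bound, with DMSO set to 3 counts in all, and for 1 to 3 DMSO counts a ratio is given with its exact 95% interval. These cover counting error only, since reads had no molecular identifiers.

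The HOX genes, the other lists and the tests were chosen with earlier results of these data known. Named by rule were up to 6 called HOX genes with the smallest p in each line, the highest HOX gene per kb of each cluster and line, the shared call, up to 8 genes with the smallest interaction p, genes called in both directions, up to 4 genes of each other list, and EZH2, EED and SUZ12. Of the HOX cofactor list, only the MEIS genes are reported here. Other genes named were chosen after their values were seen.

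On simulated counts, edgeR recovered between 65.6% (T24) and 90% (SW780) of 2-fold changes in single lines and between 15.5% (T24) and 83.8% (639V) of 1.5-fold changes, with 6% to 10.7% false calls. The shared fit recovered 80% of 2-fold changes, and the interaction test 57.6% of those simulated in HT1197. Alternatives were RLE size factors, library totals, no filter on low counts, DESeq2, a replicate block, leaving out each library or line, 1 fit of 48 libraries, and merged exon length.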

Additional observations from a re-analysis of the deposited data

Results flagged for a closer look

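Differences between lines in the response to CPI-0209 drew attention for 32 of the 38 HOX genes, by an F test of the interaction of line and treatment in edgeR with Benjamini-Hochberg adjustment over all genes, where 58.7% of all genes passed. In HOXB the adjusted p was 7.95e-18 for HOXB9, 7.99e-12 for HOXB4, 1.35e-09 for HOXB8, 1.51e-09 for HOXB3, 1.83e-08 for HOXB7, 2.16e-08 for HOXB6, 1.31e-07 for HOXB13, 3.11e-07 for HOXB5 and 0.00243 for HOXB2. In HOXC it was 7.25e-16 for HOXC13, 4.58e-14 for HOXC6, 1.16e-12 for HOXC8, 2.77e-08 for HOXC4, 9.11e-06 for HOXC11, 7.44e-05 for HOXC9 and 0.000253 for HOXC10. In HOXD the edgeR adjusted p was 5.65e-13 for HOXD11, 9.56e-13 for HOXD10, 7.68e-10 for HOXD1, 1.52e-06 for HOXD13, 3.02e-06 for HOXD4, 0.000697 for HOXD9, 0.00204 for HOXD3 and 0.0114 for HOXD8. In HOXA the values were 9.14e-07 for HOXA5, 1.8e-05 for HOXA3, 3.61e-05 for HOXA4, 0.000133 for HOXA11, 0.000526 for HOXA9, 0.00115 for HOXA10, 0.0123 for HOXA6 and 0.0446 for HOXA7. HOXC11 passed without being called in any single line. The 6 genes that did not pass were HOXA2, HOXA13, HOXB1, HOXC5, HOXC12 and HOXD12.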

How the results depend on the processing

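Over 48 results for named HOX genes in single lines or shared, 576 alternative values gave 513 on the same side of the threshold with the same direction, 63 that lost the call and 0 that changed sign. The 63 belonged to 12 results, in HT1197, KU1919, T24 and the shared fit. These 48 results were chosen for the smallest p in each line, besides the shared call, so weaker calls of the other lines are not among them. In those lines too some calls were lost in fits that left out a library, among them HOXB5 in SW780, HOXC8 in 639V, HOXB3 in TCCSUP and HOXA7 in VMCUB. Counts of called HOX genes that moved by over 1.5 times were these, and the cause was not tested. DESeq2 called 2 genes higher in HT1197, 4 lower in VMCUB and 6 higher in the shared fit. Without a filter, HT1376 had 13 higher calls and T24 3 lower calls. With library totals T24 and VMCUB each had 0 lower calls, and the share of all called genes that were higher went from 50.5% to 75% in SW780, from 60.3% to 75.6% in HT1197, from 56.4% to 71.9% in 639V, from 59.9% to 79.8% in VMCUB and from 62.4% to 93.9% in the shared fit. In 1 fit of 48 libraries HT1376 had 15 higher calls, KU1919 15, T24 12 lower calls and VMCUB 5. Without single libraries the higher calls ranged from 2 to 4 in HT1197, 1 to 12 in KU1919 and 3 to 4 in T24, and the lower calls from 0 to 2 in KU1919, 0 to 6 in T24 and 0 to 5 in VMCUB. Without single lines the shared calls ranged from 0 to 1. With merged exon length 19 of 32 highest genes per cluster and line were the same.

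Spearman's rho of change on level, with the level from 1 DMSO library and the fold change from the others, ranged from -0.674 to -0.441 in HT1197, -0.879 to -0.736 in HT1376, -0.37 to -0.156 in KU1919, -0.557 to -0.503 in SW780, -0.494 to -0.324 in T24, -0.527 to -0.459 in 639V, -0.391 to -0.368 in TCCSUP and -0.757 to -0.56 in VMCUB. Values inside these ranges that moved were -0.505 in HT1197, -0.376 in TCCSUP and -0.643 in VMCUB. Without a filter rho was -0.262 in HT1197, -0.54 in HT1376, -0.707 in SW780, -0.336 in T24, -0.348 in 639V, -0.403 in TCCSUP and -0.454 in VMCUB. Depth limits what can be said of HOX genes with a few counts in a group.

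Replicate numbers are shared between treatments but do not pair the samples: same-numbered libraries correlated between -0.34 and 0.216 in their deviations from the group means, over 0.1 in 2 of 24 pairs, and in no line did every library correlate best with its own number. With the replicate number as a block, higher calls were 4 in HT1197, 7 in HT1376, 5 in KU1919, 19 in SW780, 3 in T24, 7 in 639V, 8 in TCCSUP and 11 in VMCUB. Lower calls under the replicate block were 2 in SW780, 0 in T24, 18 in 639V, 11 in TCCSUP and 1 in VMCUB, and 31 HOX genes differed between lines in their response.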

Other observations

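Below the filter on low counts, HOXC11, HOXC8 and HOXD1 had counts in CPI-0209 libraries and at most 1 count in DMSO libraries. In HT1376 HOXC11 had 0 counts in DMSO and 21 in CPI-0209, at least 8.10-fold higher when the DMSO group is set to a floor of 3 counts, with 0.263, 0.142 and 0.231 CPM in the treated libraries. HOXC8 had 0 and 17 counts there, at least 6.56-fold higher, and HOXD1 had 1 and 19, a ratio of 22 with a 95% counting interval of 3.50 to 913.9. In SW780 HOXC11 had 0 and 15 counts, at least 4.21-fold higher, and 0.108, 0.068 and 0.108 CPM in the treated libraries. With no filter these 4 passed edgeR's quasi-likelihood test (adjusted p = 0.000509, 0.00223, 0.00336 and 0.00138 in that order). In all of them the treated level stayed under 0.4 CPM. These genes were chosen after their values were seen.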
